A study of Homo sapiens with 6 samples.

Results

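The 9 genes *FGR*, *LYN*, *SYK*, *BTK*, *PTPN6*, *INPP5D*, *PIK3CG*, *VAV1* and *PLCG2* encode kinases, phosphatases and their partners that carry signals from the surface receptors of myeloid cells. They were chosen by name, and all 9 were found among the 16585 gene symbols with a value in every group. RNA-seq was performed on 6 samples of K562, an established line from a chronic myeloid leukemia that has erythroid features and carries the BCR-ABL kinase fusion. The CTR cells held an empty Tet-inducible PiggyBac vector. The CEBPA cells held the same system with wild-type C/EBPα, and the P30 cells the same system with the shorter C/EBPα-p30 isoform. The study's supplement lists both the full-length and the p30 form for the CEBPA line after doxycycline. The comparison of CEBPA with P30 may thus not set the full-length form alone against p30. The 2 replicates of each group were all treated with 200 ng/ml doxycycline for 48 h, so that the groups are separately made stable lines compared at a single time. Cells without doxycycline were not analysed here, and whether each line is 1 clone is not given in the sources used here. The study's methods name 2 sequencing runs on different instruments, a split that the pooled values do not show.

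The deposited value is 1 FPKM per gene and group (fragments per kilobase of transcript, scaled to the mapped fragments of the library), in which the authors had pooled both replicates. Neither the depth behind a value nor the spread between replicates can be seen, so no value here has an error, and no difference was tested here. The authors did test differences between these groups, and their calls are not used here. Changes are differences of log2(FPKM + 1), which understates the change of low genes. A gene was called when it differed at least 2-fold on this scale, provided that 1 of its 2 values, or both, passed 1 FPKM. In these terms "rose" and "fell" are used below only of genes past 2-fold, and all other differences are given as values.

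In myeloid cells, Src family kinases such as FGR and LYN phosphorylate the ITAM motifs of receptor adaptors, and SYK docks on the phosphorylated motif. SYK then acts on a second tier of proteins, which includes the kinase BTK, the exchange factor VAV1 and the phospholipase PLCG2. The phosphatases PTPN6 (SHP-1) and INPP5D (SHIP1) are recruited to inhibitory ITIM receptors and work against these steps, the former on phosphotyrosine and the latter on the lipid made by PI3-kinases.

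*FGR* stood apart from the other genes. It had 0.0486 FPKM in CTR, 53.9 FPKM in CEBPA and 0.219 FPKM in P30. It was thus close to 0 in both CTR and P30 and among the upper levels in CEBPA, above the CEBPA values of 85.5% of all genes over 1 FPKM in any group. Its rise over CTR was 5.71 on the log2 scale, and a rise of this size or above was seen for 26 of the 13673 genes compared, *FGR* among them. Its rise over P30 was 5.49. *FGR* had no row in the table of CTR and P30, both of its values were under 1 FPKM, and it was not compared there. In bulk RNA of this kind, fewer cells of a type and less RNA per cell cannot be told apart. A ratio to a value so near 0 has no known precision and is not given. *FGR* (ENSG00000000938) lies on the minus strand of chromosome 1 from 27938575 to 27961696 in GRCh37, the build that the authors aligned to, and none of its exons is shared with another annotated gene.

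Members that differ in direction can be set beside the bases at their starts. RefSeq promoter windows (GRCh38.p14, 250 bases before to 50 after a start) were used for 8 of the 9 genes. There were 13 windows in all, since some genes have several starts. *LYN* was left out of this set, so the counts of member windows do not cover it. The stretches of 250 bases upstream are printed 5′ to 3′ on the strand of the gene for *FGR*, which rose most in CEBPA, for *INPP5D*, which fell most, for *PIK3CG*, the gene that rose in P30, and for *VAV1*. Capitals mark GAGGAA, the core bound by the myeloid factor PU.1, or its reverse complement TTCCTC.
FGR, upstream start, chr1:27635186-27635435, minus strand: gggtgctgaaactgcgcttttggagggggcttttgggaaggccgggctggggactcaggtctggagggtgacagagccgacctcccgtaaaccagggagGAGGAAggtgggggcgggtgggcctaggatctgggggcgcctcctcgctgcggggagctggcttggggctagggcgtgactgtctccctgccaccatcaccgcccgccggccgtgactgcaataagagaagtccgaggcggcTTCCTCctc
FGR, downstream start, chr1:27626598-27626847, minus strand: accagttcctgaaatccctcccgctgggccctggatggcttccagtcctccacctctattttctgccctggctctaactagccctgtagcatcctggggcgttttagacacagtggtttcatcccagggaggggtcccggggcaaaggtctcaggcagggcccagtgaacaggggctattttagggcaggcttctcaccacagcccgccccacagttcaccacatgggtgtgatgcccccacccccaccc
INPP5D, chr2:233060092-233060341, plus strand: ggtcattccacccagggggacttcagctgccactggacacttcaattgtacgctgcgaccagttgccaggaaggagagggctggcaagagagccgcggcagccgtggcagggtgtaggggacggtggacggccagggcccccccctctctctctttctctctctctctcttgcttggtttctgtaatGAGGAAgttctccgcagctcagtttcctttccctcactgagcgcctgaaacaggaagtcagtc
PIK3CG, chr7:106865229-106865478, plus strand: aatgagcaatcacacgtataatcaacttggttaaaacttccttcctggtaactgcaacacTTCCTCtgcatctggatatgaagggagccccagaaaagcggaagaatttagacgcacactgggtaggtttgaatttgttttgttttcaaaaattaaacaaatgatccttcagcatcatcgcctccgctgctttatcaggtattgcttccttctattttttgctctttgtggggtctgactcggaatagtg
VAV1, chr19:6772458-6772707, plus strand: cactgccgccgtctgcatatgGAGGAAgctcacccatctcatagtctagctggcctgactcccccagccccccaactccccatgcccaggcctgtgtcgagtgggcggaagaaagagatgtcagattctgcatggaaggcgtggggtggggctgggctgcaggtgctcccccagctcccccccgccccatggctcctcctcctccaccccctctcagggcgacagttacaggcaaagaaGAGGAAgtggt

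Searched on both strands over the whole windows, GAGGAA was found in 10 of the 13 windows, while 27.9% of all 35116 windows held it. At least 1 window of each of the 8 genes held it, but some genes have several windows. No share per gene was computed over all genes. The longer form GAGGAAGT, added after the sequences had been read, was found in 6 of 13 windows, in *BTK*, *INPP5D*, *PIK3CG*, *PTPN6*, *SYK* and *VAV1*, against 2.59% of all windows. Each match of the longer form also holds the shorter. Counted from the transcription start, it lies at -63 in *INPP5D*, at -11 in *VAV1* and, on the opposite strand, at -192 in *PIK3CG*. *FGR* has the short form only, at its upstream start, and none at the downstream start. The core of the C/EBP motif, TTGCNNAA, was found in 1 of the 13 windows, that of a start of *SYK*, where it reads TTGCCCAA, and in 10.5% of all windows. CCAAT was found in 3 of 13 windows and in 34.6% of all. Windows of neighbouring starts of *SYK* overlap. These matches describe letters in the windows and are not known sites. GAGGAA was present before or at the starts of members that rose, of members that fell and of members that were not called.

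The levels of all 9 genes are shown by group in the plot of FPKM, where *FGR* is the only gene under 1 FPKM. FPKM is per length of transcript, so that genes can be ordered within a group. In CTR the order began with *BTK* (68.7 FPKM) and *LYN* (49.8 FPKM) and ended with *SYK* (4.74 FPKM) and *FGR*. In P30 it began with *BTK* and *LYN* and ended with *SYK* and *FGR* as well. In CEBPA *LYN* came first, followed by *FGR* and then *BTK*, and *PTPN6* was lowest. Whether neighbours in these orders differ beyond replicate error cannot be said.

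**Figure D1:**
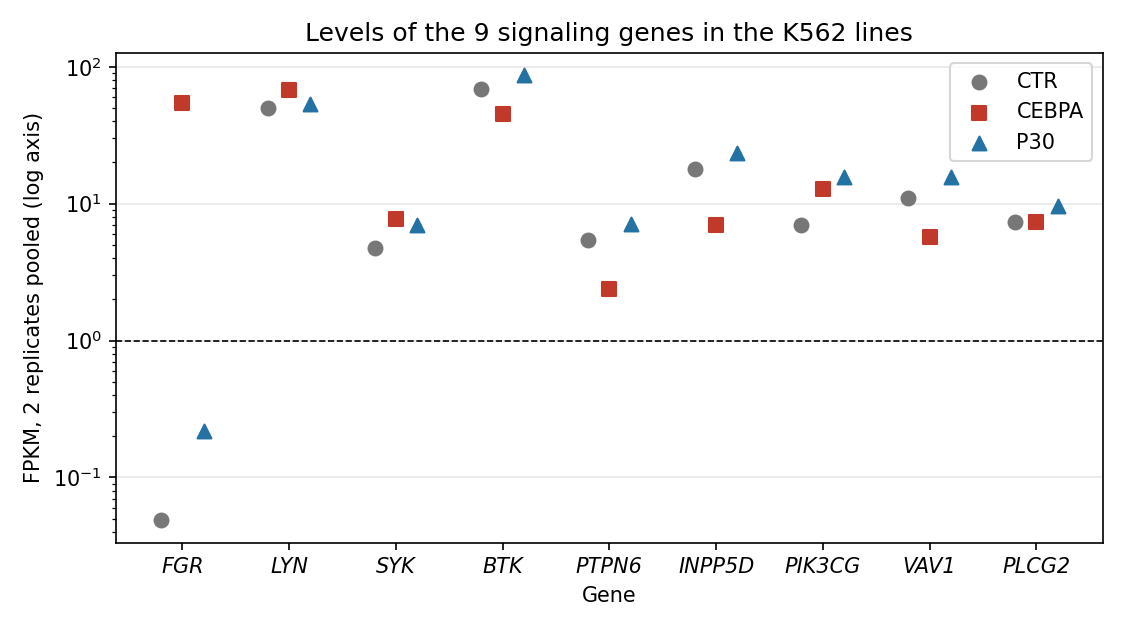
FPKM of the 9 genes in CTR (circles), CEBPA (squares) and P30 (triangles), on a log axis, each point 1 value pooled over 2 replicates, with a dashed line at 1 FPKM. *FGR* is at 53.9 FPKM in CEBPA and under 1 FPKM in CTR and P30, while the 8 other genes lie between 2.38 and 86.7 FPKM in every group.

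In CEBPA vs CTR, 1 of the 9 genes was called higher (*FGR*) and 1 lower (*INPP5D*). The background over all genes compared was 14.0% called higher and 6.92% called lower. The share of the members, 11.1% in each direction, was near it. The median change of the 9 genes was 0.01, beside -0.01 over all genes. The 9 values ran from -1.24 to 5.71, with 5 above 0 and 4 below, and the scaled median absolute deviation of all genes was 0.73.

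Among the phosphatases, *INPP5D*, which removes the 5-phosphate from the lipid product of PI3-kinases, had 17.9 FPKM in CTR, 7.02 FPKM in CEBPA and 23.6 FPKM in P30. The CEBPA value was the lowest and the P30 value the highest. Relative to CTR, *INPP5D* fell by 1.24 on the log2 scale in CEBPA. Relative to P30 it fell by 1.62, and 0.988% of all genes compared fell as far or further. *INPP5D* lies on the plus strand of chromosome 2 (233924677 to 234116549, GRCh37) and shares 82 exon bases, 1.19% of its exons, with an annotated lncRNA on the opposite strand.

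*PTPN6*, the tyrosine phosphatase that docks on ITIM receptors, showed the same order of groups, with 5.47 FPKM in CTR, 2.38 FPKM in CEBPA and 7.09 FPKM in P30. Relative to CTR its log2 change in CEBPA was -0.94, under 2-fold on the scale with pseudocount 1. With a pseudocount of 0.1 this became -1.17 and passed 2-fold, and the plain ratio of CTR to CEBPA was 2.30. In CEBPA vs P30 it fell by 1.26. The gene is on chromosome 12 (7055631 to 7070479, plus strand, GRCh37).

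Of the Src family kinases, *LYN* was high in every group, with 49.8 FPKM in CTR, 67.7 FPKM in CEBPA and 53.7 FPKM in P30. Relative to CTR, *LYN* had a log2 change of 0.44 in CEBPA and of 0.11 in P30, both under 2-fold. *LYN*, *FGR*, *SRC*, *FYN* and *FRK* were the 5 Src family kinases with a row, and their FPKM summed to 84.2 in CTR, 150.5 in CEBPA and 79.6 in P30. *FGR* made up 0.0577% of this sum in CTR, 35.8% in CEBPA and 0.275% in P30. *LYN* made up 59.1%, 45.0% and 67.4%. The higher sum in CEBPA was thus mostly *FGR*, while *SRC* (9.0, 4.58 and 7.95 FPKM in CTR, CEBPA and P30) and *FYN* (25.2, 23.2 and 17.7 FPKM) were not higher there than in CTR. *FRK* stood at 1.11 FPKM in CEBPA and at 0.126 FPKM in CTR.

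*SYK*, the kinase that reads phosphorylated ITAMs, had 4.74 FPKM in CTR, 7.71 FPKM in CEBPA and 6.93 FPKM in P30. Both values were above that of CTR, by 0.60 for CEBPA and 0.47 for P30 on the log2 scale, and neither difference reached 2-fold. *BTK*, a kinase of the TEC family best known from B cells and also used by myeloid cells, had 68.7 FPKM in CTR, 44.9 FPKM in CEBPA and 86.7 FPKM in P30. CEBPA was lowest, with a log2 change of -0.60 against CTR and of -0.93 against P30, both under 2-fold. In GRCh37 *SYK* is on chromosome 9 (93564069 to 93660831, plus strand) and *BTK* on chromosome X (100604326 to 100645784, minus strand).

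The exchange factor *VAV1*, which activates Rac proteins, had 11.05 FPKM in CTR, 5.74 FPKM in CEBPA and 15.6 FPKM in P30. It fell by 1.30 on the log2 scale in CEBPA vs P30, whereas the log2 change of -0.84 in CEBPA vs CTR was under 2-fold. *PLCG2*, which cleaves a membrane lipid into messengers that release calcium and activate protein kinase C, was nearly level, with 7.31 FPKM in CTR, 7.39 FPKM in CEBPA and 9.58 FPKM in P30. Its log2 change in CEBPA vs CTR was only 0.01. The annotation used here has an lncRNA on the same strand that shares 22.6% of the *PLCG2* exon bases, and how the authors' counting assigned reads there is not given in the sources used here, so its level is uncertain. *VAV1* lies on chromosome 19 (6772719 to 6857377) and *PLCG2* on chromosome 16 (81812884 to 81996290), both on the plus strand of GRCh37.

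*PIK3CG*, the catalytic PI3-kinase subunit p110γ that acts downstream of G protein-coupled receptors, had 6.95 FPKM in CTR, 12.8 FPKM in CEBPA and 15.5 FPKM in P30. CTR was lowest. In P30 vs CTR *PIK3CG* rose by a log2 change of 1.06, a ratio of 2.24, just past the threshold, and 0.960% of all genes compared rose as far or further. In CEBPA vs CTR its log2 change of 0.79 was under 2-fold, and in CEBPA vs P30 it was -0.26. The gene lies on chromosome 7 (106505723 to 106549425, plus strand, GRCh37).

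**Figure D2:**
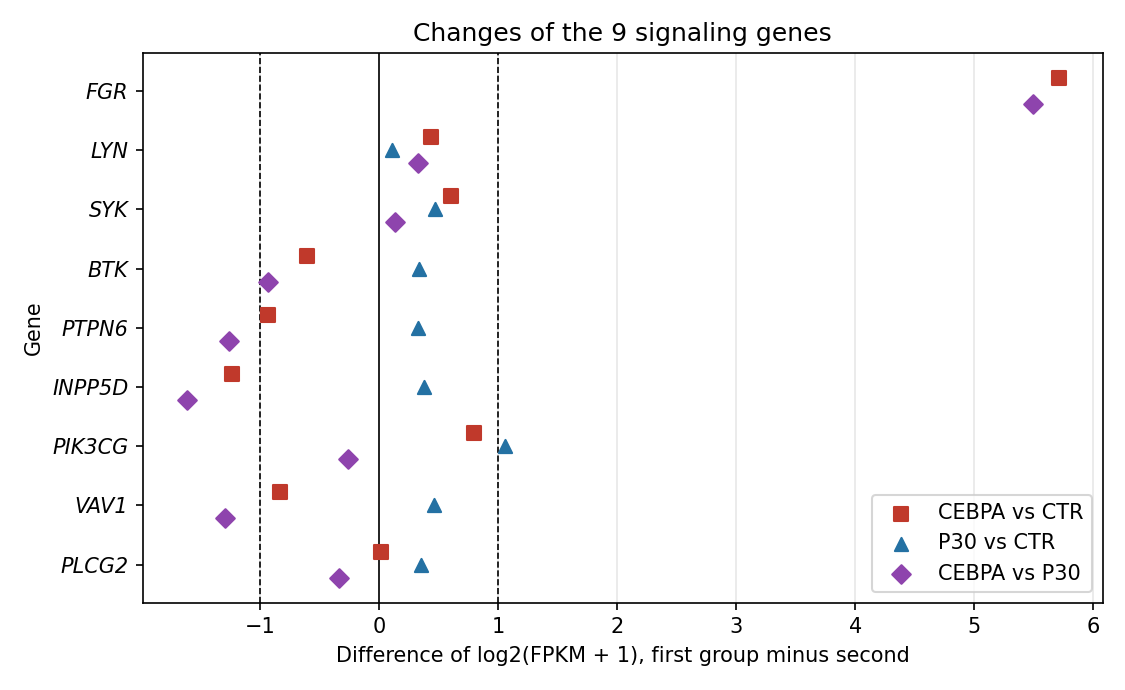
Differences of log2(FPKM + 1) for the 9 genes in CEBPA vs CTR (squares), P30 vs CTR (triangles) and CEBPA vs P30 (diamonds), with dashed lines at 2-fold. *FGR* lies at 5.71 and 5.49, *INPP5D* is left of the lower line in CEBPA against either group, and *PIK3CG* is right of the upper line in P30 vs CTR.

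In P30 vs CTR, 8 of the 9 genes were compared, 1 was called higher (*PIK3CG*) and 0 lower. Over all 12395 genes, the background was 1.02% called higher and 0.613% called lower, against 12.5% of the members called higher, which is a single gene. All 8 values were above 0, from 0.11 for *LYN* to 1.06 for *PIK3CG*, with a median of 0.36. Over all genes the median was 0.02, 55.1% were above 0 and the scaled median absolute deviation was 0.20. Among the 7 genes not called, the ratios of P30 to CTR ran from 1.08 for *LYN* to 1.46 for *SYK*, all under 2-fold. Beside all genes compared, 4.13% had a change as high as that of *SYK* or higher. This share was 4.27% for *VAV1*, 6.28% for *INPP5D*, 7.29% for *PLCG2*, 8.04% for *BTK*, 8.50% for *PTPN6* and 33.1% for *LYN*. P30 and CTR are separate lines, so line and isoform cannot be told apart.

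In CEBPA vs P30, 1 of the 9 genes was called higher (*FGR*) and 3 lower (*INPP5D*, *VAV1* and *PTPN6*). Over all 13569 genes compared, the background was 13.1% called higher and 5.79% called lower, while 33.3% of the members were called lower. The median change was -0.34 over the 9 genes and -0.04 over all genes. These comparisons share groups with the others, so that a high P30 value also lowers the change given here: *INPP5D*, *VAV1* and *PTPN6* stood 0.38, 0.46 and 0.32 above CTR in P30, and their log2 changes against CTR in CEBPA were -1.24, -0.84 and -0.94.

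**Figure D3:**
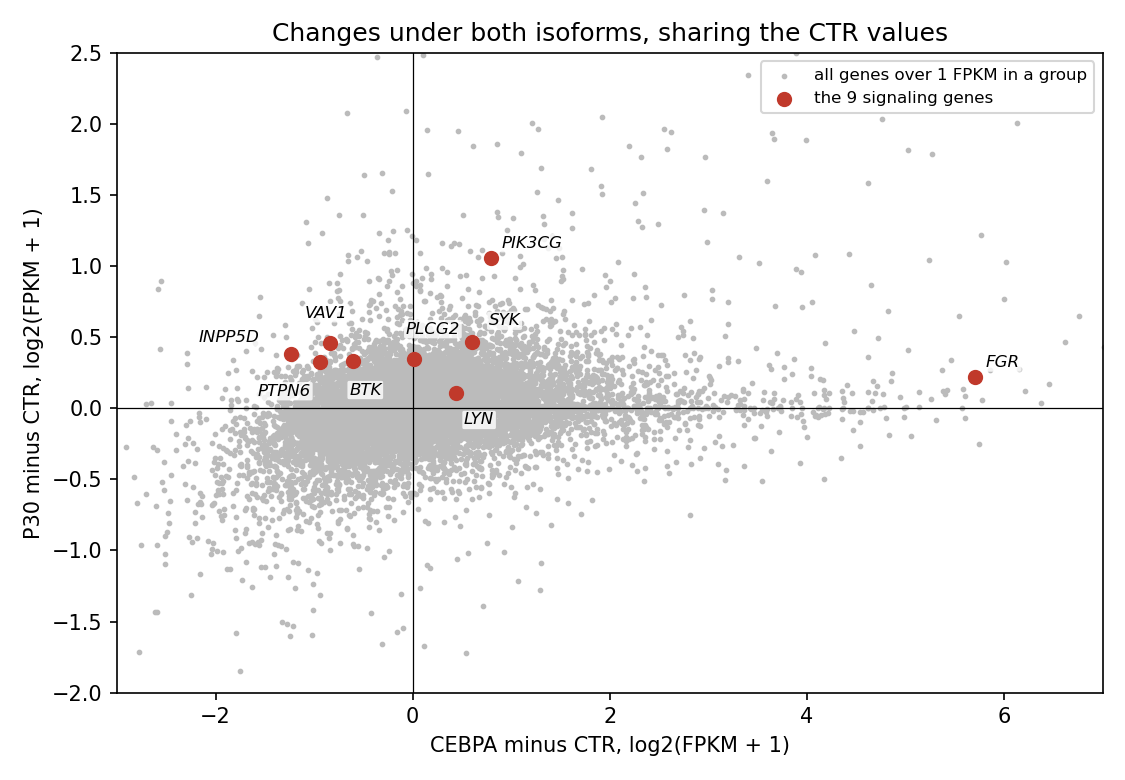
Difference of log2(FPKM + 1) in CEBPA vs CTR (horizontal) and in P30 vs CTR (vertical) for genes over 1 FPKM in at least 1 group (grey) and the 9 genes (red). Both axes use the same CTR values, and 36 of the 13669 genes lie outside the plotted range. *FGR* is far to the right at 5.71 with a value of 0.22 on the vertical axis, and *PIK3CG* is the highest of the 9. The vertical value of *FGR* rests on CTR and P30 values that are both under 1 FPKM.

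The genes whose pair of changes (CEBPA vs CTR and P30 vs CTR) was nearest to that of *FGR* were *CLEC12A*, *STX11*, *TSPAN8*, *CCK* and *CYBB*. Their Euclidean distances on the log2 scale were 0.04 to 0.17, over 3 groups and among 13669 genes. The P30 vs CTR change of *FGR* used here (0.22) rests on values that are both under 1 FPKM and were not compared above. *CLEC12A*, an inhibitory lectin receptor of myeloid cells whose ITIM recruits PTPN6, had 0.0107 FPKM in CTR, 50.8 FPKM in CEBPA and 0.197 FPKM in P30. *CYBB*, the catalytic subunit of the phagocyte NADPH oxidase, had 1.79, 152 and 1.90 FPKM in the same order. *STX11*, a syntaxin of secretory cells of the immune system, had 0.294, 61.1 and 0.423 FPKM. *TSPAN8*, a tetraspanin, had 0.562, 89.6 and 0.879 FPKM, and *CCK*, the gene of the peptide cholecystokinin, had 47.7 FPKM in CEBPA and 0.0610 FPKM in P30, with CTR listed at 0. With 3 groups, a likeness of this kind rests on very few points.

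Further genes of the pathway were taken from 7 lists with 76 genes by role, of which 53 could be compared in CEBPA vs CTR. Of these, 11 (20.8%) were called higher and 5 (9.43%) lower, beside the 14.0% and 6.92% of all genes given above. Their median change was 0.23. In P30 vs CTR 4 of 49 (8.16%) were called higher and 0 lower, beside 1.02% and 0.613% of all genes, with a median of 0.15. In CEBPA vs P30 10 of 54 (18.5%) were called higher and 7 (13.0%) lower, beside 13.1% and 5.79% of all genes, with a median of -0.10.

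The genes called higher in CEBPA vs CTR included partners on both sides of the pathway. Of 12 ITAM adaptors and scaffolds compared, 4 rose and 0 fell, beside 14.0% and 6.92% of all genes. *BLNK*, the adaptor that links SYK to BTK and PLCG2, went from 0.0147 FPKM in CTR to 7.38 FPKM in CEBPA and had 0.0306 FPKM in P30. *FCER1G*, the ITAM-bearing gamma chain of Fc receptors, had 0.553, 3.84 and 0.231 FPKM in CTR, CEBPA and P30. The second ITAM adaptor, *TYROBP*, had 7.07, 8.63 and 9.18 FPKM and was not called. *FYB*, an adaptor of integrin signaling, rose in both lines, from 1.08 FPKM in CTR to 12.8 FPKM in CEBPA and 12.6 FPKM in P30. Of the other SYK and TEC family kinases, *BMX* rose from 0.325 FPKM in CTR to 21.0 FPKM in CEBPA and had 1.22 FPKM in P30, while *TEC* (7.29, 8.90 and 9.76 FPKM) was not called.

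Among 10 other protein tyrosine phosphatases, 2 rose and 0 fell in CEBPA vs CTR, near the 14.0% and 6.92% of all genes. *PTPN22*, which dephosphorylates Src family kinases, had 0.587 FPKM in CTR, 35.7 FPKM in CEBPA and 9.19 FPKM in P30. *PTPRE* had 0.0638, 5.07 and 0.0813 FPKM. *PTPN11* (SHP-2), the closest relative of *PTPN6*, had 37.4, 44.1 and 40.5 FPKM and was not called in any comparison. In P30 vs CTR *PTPN22* rose by 2.68 and *PTPRC*, the gene of CD45, by 1.14 on the log2 scale. Of the 5 ITIM receptors compared in CEBPA vs CTR, *CLEC12A* and *LAIR1* rose, the latter from 0.00674 to 27.4 FPKM, and *CD33* fell from 30.8 to 14.8 FPKM.

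Of the other PI3-kinase subunits and phosphoinositide phosphatases, 2 of the 9 compared in CEBPA vs CTR rose and 1 fell. Over all genes in that comparison, 14.0% were called higher and 6.92% lower. *PIK3AP1*, an adaptor that brings PI3-kinase to receptors, rose from 2.18 to 8.17 FPKM. *INPPL1* (SHIP2), the relative of *INPP5D*, had 79.2, 60.5 and 81.8 FPKM and was not called. The leukocyte subunit *PIK3CD* had 13.0, 6.63 and 16.6 FPKM and fell by 1.21 on the log2 scale in CEBPA vs P30. In the list of VAV, phospholipase C, Rac and protein kinase C genes, 3 of the 9 compared in CEBPA vs CTR fell and 0 rose, and the median change was -0.71. These were *PLCB2*, which fell from 15.9 to 2.96 FPKM, *PLCB3*, from 20.5 to 9.16 FPKM, and *RAC2*, the Rac protein of blood cells, from 123 to 58.5 FPKM. Of 4 other Src family kinases and regulators compared, 0 were called, and *CSK*, which inhibits Src family kinases, had 32.5, 25.6 and 32.8 FPKM.

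**Figure D4:**
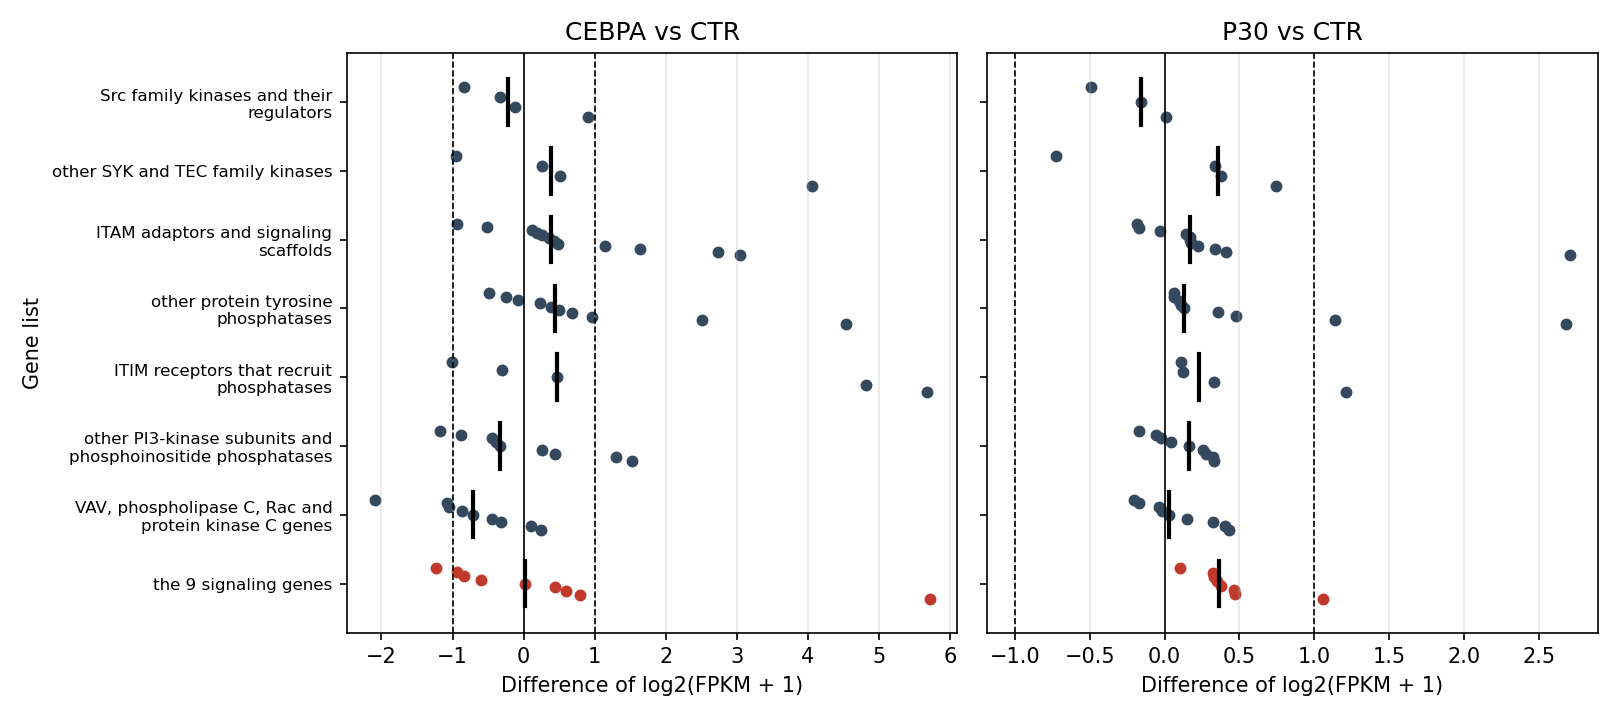
Difference of log2(FPKM + 1) for each gene of 7 pathway lists (dark points) and for the 9 genes (red points) in CEBPA vs CTR (left) and P30 vs CTR (right), with a bar at each list's median and dashed lines at 2-fold. In CEBPA vs CTR the points to the right of 4 are *FGR*, *BMX*, *PTPN22*, *LAIR1* and *CLEC12A*, and the VAV, phospholipase C, Rac and protein kinase C list has its median at -0.71.

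Several of the 9 genes are used by more than one blood lineage, so lineage markers were read beside them. Of 7 erythroid markers, 6 had values and all 6 fell in CEBPA vs CTR, beside 6.92% of all genes. Their summed level went from 1730 FPKM in CTR to 569 FPKM in CEBPA and stood at 1124 FPKM in P30. In P30 vs CTR 2 of the 6 fell, beside 0.613% of all genes. These were *ALAS2*, from 149 to 44.7 FPKM, and *HBG1*, from 872 to 410.4 FPKM, and the median change of the list was -0.46. *GATA1*, an erythroid transcription factor, had 185, 53.1 and 193 FPKM in CTR, CEBPA and P30. Of 8 neutrophil markers, 5 had values and summed to 4.03 FPKM in CTR, 8416 FPKM in CEBPA and 23.7 FPKM in P30. In CEBPA the sum was mostly *S100A8* (3731 FPKM) and *S100A9* (4623 FPKM), while in CTR the highest of them was *CSF3R* at 2.91 FPKM. Of 7 monocyte and macrophage markers, 5 had values and summed to 551, 2219 and 630 FPKM. Most of the sum was *CD68* in CTR and P30 and *LYZ* in CEBPA. *CD68* had 505, 430.0 and 579.5 FPKM and *LYZ* 45.5, 1781 and 47.6 FPKM in CTR, CEBPA and P30, so that the higher sum in CEBPA came mainly from *LYZ*. *CD14* was at 1.10 FPKM in CEBPA. The 3 of 6 B cell markers with values summed to 9.87 FPKM in CTR, 2.78 FPKM in CEBPA and 9.56 FPKM in P30, with *CD79B* at 0.117 FPKM in CEBPA. The 3 of 7 T and NK cell markers with values summed to 7.90, 5.84 and 8.64 FPKM, and the 4 of 6 megakaryocyte and platelet markers to 13.5, 13.8 and 14.2 FPKM. *GP9* was listed at 0 in CTR and *PF4* in P30. *FGR* was highest in the group where the neutrophil and monocyte sums were highest. *INPP5D*, *VAV1* and *PTPN6* were lowest in the group where the erythroid, the B cell and the T and NK cell sums were lowest. Their highest values were in P30, where the erythroid sum was 1124 FPKM and the B cell sum 9.56 FPKM. The T and NK cell sum (8.64 FPKM) and the megakaryocyte and platelet sum (14.2 FPKM) were highest in P30 as well. The part of these cell types in the results was not tested.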

How the data were processed

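RNA-seq libraries of 6 K562 samples (2 replicates each of CTR, CEBPA and P30) were aligned by the authors to hg19 with TopHat and assembled with Cufflinks on a Gencode annotation, and the deposited FPKM values were estimated with Cuffdiff, 1 per gene and group with the replicates pooled. How the rows of the 3 tables were selected, and whether strand was used in counting, are not given in the sources used here. The submitters' processing notes name TopHat2 2.0. The labels and the study's methods name different kits for RNA extraction, and libraries were made with a stranded mRNA kit. Depth per value is unknown, and no test was run here, while the authors tested differences between the groups with Cuffdiff. Groups were taken from the sample titles. Each comparison used the table that holds both groups, with changes computed as log2 with pseudocount 1, for genes with more than 1 FPKM in either group. Repeated symbols were left out of values across the 3 groups. The scaled median absolute deviation is the median absolute deviation times 1.4826.

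The members, the 7 pathway lists and the marker lists were chosen with earlier results of these data known. Named genes were the 9 members, up to 4 called genes per list and comparison, and the 5 genes nearest to the member with the largest change in CEBPA vs CTR. Uncalled list genes, the family relatives and the motif GAGGAAGT were named after their values or sequences had been seen. Gene positions are from Gencode for GRCh37, a later release than the authors used, and promoter windows from RefSeq for GRCh38.p14, with no conversion between builds. The computation of changes was tested on simulated data. Alternatives were a pseudocount of 0.1, centring, no filter, a filter at 5 FPKM, summed rows, only genes in all 3 tables, and a 1.5-fold threshold. Python 3.11.15, numpy 2.4.6, pandas 2.3.3 and matplotlib 3.10.9 were used. A gene of the pathway lists that was counted is not reported here by name.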

Additional observations from a re-analysis of the deposited data

How the results depend on the processing

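No paired analysis was possible because both replicates of a group stand behind a single FPKM, and fits that leave out a replicate were not run for that reason. Since replicate error is unknown, shifts were read against the scaled median absolute deviation of P30 vs CTR (0.20 on the log2 scale), and counts against a factor of 1.5. Among 214 values recomputed over 35 results, 203 kept within those bounds and 11 shifted further. None of the 154 recomputed changes of single genes took another sign. With pseudocount 0.1, 2 genes (*INPP5D* and *PTPN6*) were called lower in CEBPA vs CTR, and the change of *FGR* was 8.51 there and 7.40 in CEBPA vs P30. With only genes listed in all 3 tables *FGR* drops out, so that 0 members were called higher in CEBPA, against CTR or against P30. Of all genes, 10.4% and 9.26% were called higher in these comparisons. The median of the members against CTR changed sign, from 0.01 to -0.29, and against P30 it was -0.64. With a 1.5-fold threshold, 3 genes were called higher and 4 lower in CEBPA vs CTR, which follows from the lower threshold. Of all genes, 24.0% were then called higher and 18.6% lower.

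Over all genes, the counts higher and lower that moved by over 1.5 times were as follows. In P30 vs CTR the 126 higher and 76 lower became 200 and 184 with pseudocount 0.1 and 334 and 326 at 1.5-fold, and the 126 higher became 81 with a filter at 5 FPKM. At 1.5-fold, CEBPA vs CTR had 3275 higher and 2539 lower in place of 1921 and 946, and CEBPA vs P30 3025 and 2417 in place of 1780 and 785. With a filter at 5 FPKM, 1080 genes were higher in CEBPA vs P30 and 1216 in CEBPA vs CTR.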

Other observations

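Levels of kinases were also set against those of phosphatases within each group, as ratios of FPKM, with no error and no test. *LYN* had 9.11 times the FPKM of *PTPN6* in CTR, 28.5 times in CEBPA and 7.57 times in P30. For *SYK* and *PTPN6* the ratios were 0.866, 3.25 and 0.977 in the same order. *PIK3CG* had 0.388 times the FPKM of *INPP5D* in CTR, 1.82 times in CEBPA and 0.658 times in P30, and *BTK* 3.83, 6.39 and 3.67 times. These pairs were chosen after the levels had been seen, and RNA levels do not measure the activity of the enzymes.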
